A study of Mus musculus with 54 samples.

Results

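Aorta RNA of C57Bl/6 (C57) and C3H/HeJ (C3H) mice was followed over 40 weeks, and the 100 array features described here are those that rose most with time on normal chow in both strains at once. They were chosen from 21179 features tested, out of 21446 deposited. For each strain, the mean of the week 0 chow arrays was subtracted from the mean of the week 40 chow arrays, and a feature's score was the smaller of the 2 differences. The 100 highest scores are called the members. The rise from week 0 to week 40 on chow is therefore how they were chosen and not a result. Chow at weeks 4, 8 and 24 and all high-fat arrays had no part in the choice.

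The study held 54 two-colour arrays in 18 groups of 3, numbered 1 to 3. In each strain there were 5 chow groups (weeks 0, 4, 8, 24 and 40) and 4 high-fat groups (weeks 4, 8, 24 and 40). Week 0 is the baseline on chow, and the later weeks count time on the diet. Every array carried aorta total RNA in one channel and total RNA of mouse embryos of day 17.5 in the other, so all groups are compared through one common reference. Age, sex and pooling are not in the labels, which also do not say that the arrays of a group come from different mice. A p-value here therefore speaks of array-to-array spread alone, and that spread may be technical.

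C57 mice are known to form fatty lesions in the aorta on an atherogenic diet, and C3H mice are known to resist them. The wall holds smooth muscle, endothelium and fibroblasts, and with time or disease it can also take up immune cells, which bring their own transcripts. In whole vessel RNA a change in the number of cells of a type and a change in RNA per cell cannot be told apart. A ratio to embryo RNA ranks samples against each other for a feature, and it gives no absolute level.

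All values are deposited log ratios, most likely to base 10, because they stop at exactly 2 and -2. Neither base nor direction is stated by the labels or the table. Were the ratio taken as embryo over aorta, all signs below would be turned and the members would fall with time. Features are given by number, because the gene names of the platform annotation were not borne out by the values. It lists 84 of the 100 members, but 821 pairs of features with one sequence accession had mean ratios that correlated at -0.017. What the members encode, and which cells make them, was therefore not determined here.

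The arrays were not all alike. Those of one replicate number tended to deviate together, and results are given by number where that matters. How widely an array's ratios spread, measured by their SD over features, was 0.267 on the median array and 0.161 to 0.201 on 5 arrays. Of these 5, the C57 ones were all on chow (week 4 replicate 3, week 8 replicate 2, week 24 replicate 3 and week 40 replicate 1), and the last was replicate 2 of C3H on high-fat diet for 4 weeks. No array repeated another: between arrays of one group r across features ran from 0.535 to 0.960. On C57 high-fat replicate 3 at week 40 the members' median was 0.0356, against 0.187 and 0.207 on the other arrays of that group.

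The scores of the members ran from 0.134 to 0.691, with a median of 0.172. Feature 20060 ranked highest, with a week 40 minus week 0 difference of 0.69 in C57 and 1.05 in C3H. Feature 5708 followed with 0.62 and 0.56, feature 4202 with 0.49 and 0.54, feature 4411 with 0.48 and 0.43, and feature 2787 with 0.37 and 0.38. For feature 5708 the C57 chow arrays read 0.26, 0.67 and 0.09 at week 0 and 0.43, 0.45 and 1.99 at week 40. Replicates 1 and 2 of week 40 lay within the week 0 range, so the C57 difference rests largely on replicate 3. Features 13483, 7950, 8106, 20179 and 10845 completed the 10 highest, with scores from 0.26 to 0.32. The limit was not a gap. Features 20531, 10858, 4040, 15551 and 3899, at ranks 96 to 100, scored 0.134 each, and the next 5 outside, features 16810, 12863, 20304, 8792 and 16310, scored 0.131 to 0.133.

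In the contrast that chose them, limma called 0 members in C57 at an adjusted p under 0.05, where it called 0 of all features higher (0%), and 26 had an unadjusted p under 0.05 (2.74% of all features did). In C3H it called 2 members, features 20060 and 10890, against 0.0236% of all features called higher. Nothing is read from these counts. When the list was chosen again without one of the 12 arrays behind it, 66 to 84 of the 100 returned. From numbers 1 and 2 alone 59 returned, and with the arrays scaled to one spread 73.

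Feature 20060 shows the pattern of choice in its plainest form. On C3H chow it read -0.32, -0.13 and -0.27 at week 0, then 0.22, 0.26 and 0.15 at week 4, 0.60, 0.56 and 0.24 at week 8, 0.55, 0.52 and 0.33 at week 24, and 0.83, 0.86 and 0.75 at week 40. All 3 arrays of week 0 lay below every later array, and all 3 of week 40 lay above every earlier one. On C57 chow it read 0.17, 0.15 and -0.07 at week 0 and 0.41, 1.01 and 0.90 at week 40. Those groups did not overlap either, but the arrays of weeks 4 and 24 reached from 0.05 to 1.03 and overlapped both.

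**Figure D1:**
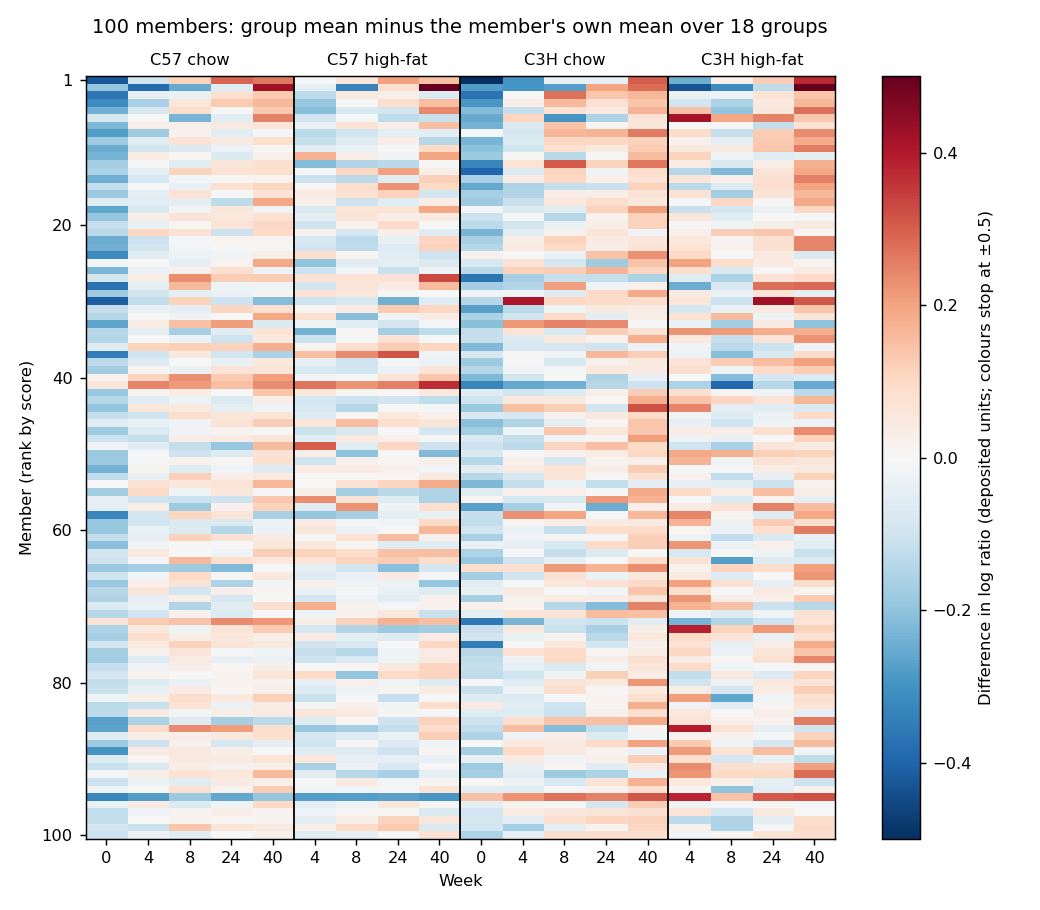
The heat map shows each of the 100 members as a row, in rank order, and each of the 18 groups as a column by week, diet and strain. Colour is the group's mean log ratio minus the member's own mean over the groups, in deposited units. The blue week 0 chow columns and redder week 40 chow columns are the choice itself, and a few members such as feature 5712 at rank 95 differ more by strain than by week.

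Weeks 0 and 40 on chow are those of the choice, and the weeks between are given beside them for the members. Their median over features was 0.014 in C57 at week 0, then 0.070, 0.088, 0.097 and 0.18 at weeks 4, 8, 24 and 40. In C3H it was 0.022, then 0.085, 0.13, 0.19 and 0.26. Beside this, the median of all features stayed between -0.0060 and 0.0028 in these 10 groups. At week 4 the mean of 95 members in C57 and of 83 in C3H lay above the week 0 mean, against 52.8% and 52.2% of all features. These values share the week 0 arrays with the choice, so they carry no test, and any deviation of those arrays enters each of them.

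Weeks 4 and 24 on chow hold no array that the choice used. Between them, 70 of the 100 members had a higher strain-averaged ratio at week 24, against 46.2% of all features. The members' median difference was 0.043, and that of all features was -0.0035. By strain, 68 members were higher in C57 with a median of 0.025, against 48.9% of all features. In C3H 70 were higher with a median of 0.054, against 46.0%. In both strains together 53 members were higher, against 28.3% of all features. By number, 77 of 98 measured members were higher in number 1, 73 of 98 in number 2 and 58 of 98 in number 3. The shares of all features were 46.2%, 47.2% and 52.7%. The members' medians were 0.072, 0.071 and 0.032. All 3 numbers were higher in 38 of 95 members, against 14.6% of all features.

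Taken singly, none of these chow differences passed. Limma called 0 members at an adjusted p under 0.05, where it called 1 feature higher in all (0.00472%) and 1 lower. An unadjusted limma p under 0.05 was found in 7 members, all higher, which were features 20060, 5708, 8106, 14997, 15303, 7816 and 15551. That is 7 of 100 against 2.20% of all features. With the replicate number as a block the count of members called was again 0.

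The size of the chow difference varied widely among the members. The quartiles were -0.012 and 0.084, and the extremes were -0.17 and 0.41. Feature 5708 had the upper extreme. In C3H it read 0.04, 0.05 and 0.61 at week 4 and 0.59, 0.66 and 0.95 at week 24, so 1 week 4 array lay among the week 24 arrays. In C57 it read 0.23, 0.15 and 0.07 at week 4 and 0.97, 0.27 and 0.18 at week 24, which overlapped.

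**Figure D2:**
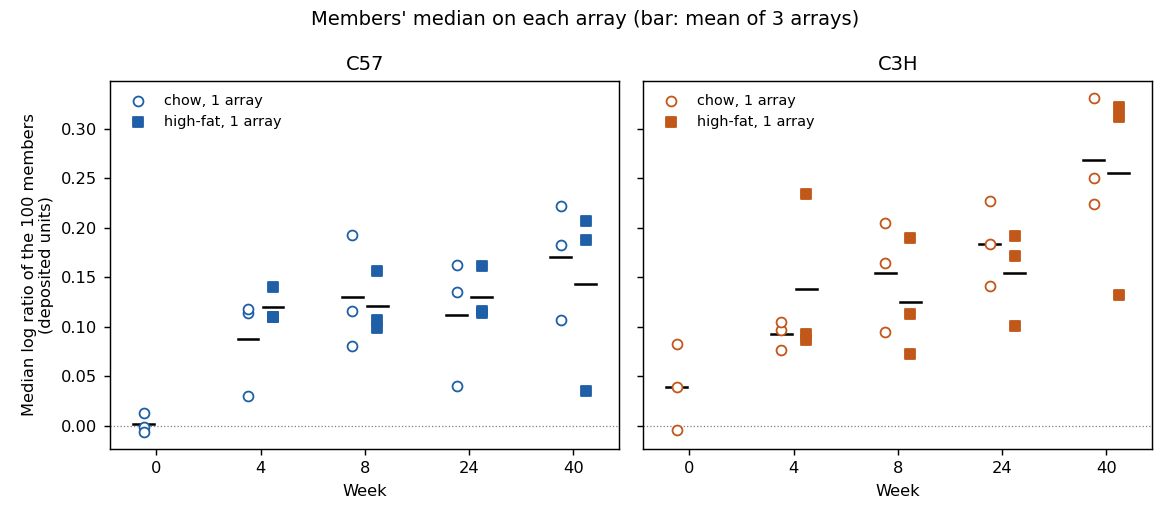
Each point is the median log ratio of the 100 members on 1 array, in deposited units, by week, with chow as open circles, high-fat diet as filled squares and a bar at the mean of 3 arrays. Week 0 arrays, which the choice used, lie between -0.0062 and 0.083. C57 high-fat replicate 3 at week 40 lies low at 0.0356.

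The high-fat arrays ask whether the same features also rise with time on the other diet. Weeks 24 and 40 were set against weeks 4 and 8, with 12 arrays on each side. Here 74 of the 100 members were higher late, against 52.1% of all features. Their median difference was 0.039, and that of all features was 0.0017. By strain 64 members were higher in C57 (median 0.040), against 54.6% of all features, and 68 in C3H (median 0.050), against 52.0%. In both strains 49 were higher, against 29.9%. Within a strain limma called 0 members, beside 0.0519% of all features called higher in C57 and 0.00944% in C3H. An unadjusted p under 0.05 was found in 7 members in C57, against 4.55% of all features, and in 14 in C3H, against 4.83%.

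The members' median per array overlapped between the early and late high-fat arrays. It ran from 0.073 to 0.235 with a median of 0.110 on the 12 early arrays, and from 0.0356 to 0.322 with a median of 0.166 on the 12 late ones. The highest early array was C3H replicate 1 at week 4. The late minus early shift of the members' median was 0.035 in number 1, 0.083 in number 2 and 0.0079 in number 3. In number 3 only 51 of 97 measured members were higher late, against 69 of 96 in number 1 and 83 of 100 in number 2. The shares of all features were 49.8% in number 3, 54.1% in number 1 and 51.8% in number 2. All 3 numbers were higher in 38 of 95 members, against 17.5% of all features.

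This shift depended on how arrays are made comparable. After scaling the arrays to one spread 65 members were higher late with a median of 0.018, and after quantile normalization 60 were higher with a median of 0.014. The share of all features that were higher was 52.2% and 49.1% in those settings. By strain, scaling left the late minus early median at 0.044 in C57 and lowered it from 0.050 to 0.011 in C3H, and the C3H median at week 40 against week 4 turned from 0.049 to -0.025. The chow difference between weeks 4 and 24 also fell after scaling, from a median of 0.043 to 0.028, and was 0.046 after quantile normalization.

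Feature 5708 carried the clearest rise on high-fat diet. In C57 it read 0.10, 1.24 and 0.10 at week 4, 0.07, 0.07 and 0.46 at week 8, 0.29, 0.63 and 0.94 at week 24, and 1.59, 1.77 and 2.0 at week 40. In C3H it read 0.14, 0.21 and -0.05 at week 4, 0.27, 0.15 and 0.24 at week 8, 0.20, 0.57 and 0.46 at week 24, and 1.05, 1.5 and 1.31 at week 40. All 3 arrays of week 40 lay above every earlier high-fat array in C3H, and likewise in C57, where only replicate 2 of week 4 came near.

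The late arrays of feature 5708 on high-fat diet averaged 1.20 ± 0.68 (SD, n = 6) in C57, against 0.34 ± 0.47 (SD, n = 6) early. In C3H the late arrays averaged 0.85 ± 0.52 (SD, n = 6), against 0.16 ± 0.11 (SD, n = 6) early. The strain-averaged difference was 0.77 (SE 0.134, limma adjusted p = 0.0134). It was the only member called, where 16 of all features were called higher (0.0755%) and 4 lower (0.0189%). It was higher late in each number, by 0.64, 0.70 and 0.99. It passed in 92 of 92 other settings, among them each of the 54 arrays left out in turn. Of those arrays only the 24 on high-fat diet enter the difference.

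From week 4 to week 40 on high-fat diet feature 5708 differed by 1.24 (SE 0.190, limma adjusted p = 0.00177). That is the largest difference of any member in this contrast. It was again the only member called, beside 17 features called higher (0.0803%) and 4 lower in all. In C57 alone the difference was 1.30 (limma adjusted p = 0.0249, 0.118% of features called higher). In C3H alone it was 1.18 (limma adjusted p = 0.0599, 0.0755% called higher), which missed the threshold. The C57 call was lost without C57 high-fat replicate 1 or 3 at week 4 or replicate 3 at week 40. One array of C57 chow at week 40 and one of C57 high-fat diet at week 40 are at or near the cap of 2, so the highest values may be understated.

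**Figure D3:**
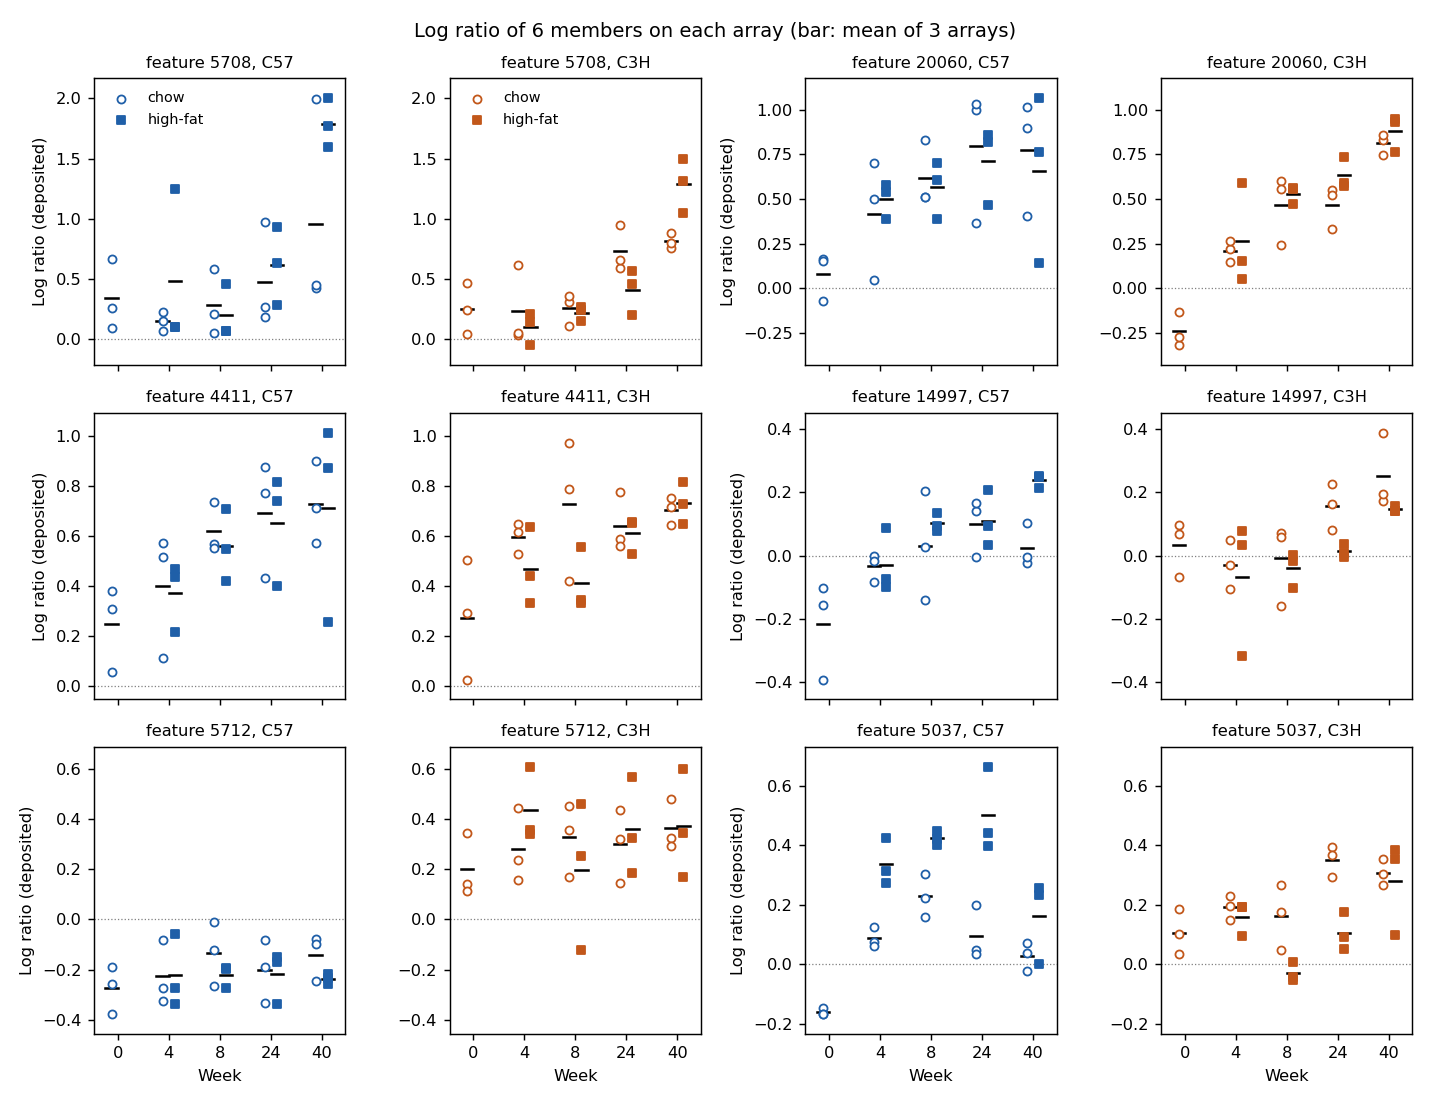
The panels plot the log ratio of 6 members on each array, in deposited units, against week, with C57 in blue and C3H in orange, chow as open circles, high-fat diet as filled squares and a bar at the mean of 3 arrays. Feature 5708 is highest at week 40 in C3H and on C57 high-fat diet, feature 5712 lies apart between the strains, and feature 5037 lies higher on high-fat diet in C57 at weeks 4, 8 and 24.

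The other leading members moved less on high-fat diet and did not pass. Feature 20060 in C3H read 0.59, 0.15 and 0.05 at week 4 and 0.95, 0.93 and 0.77 at week 40, which did not overlap. In C57 it read 0.39, 0.54 and 0.58 at week 4 and 0.76, 1.06 and 0.14 at week 40, where replicate 3 lay below all week 4 arrays. Its late minus early difference was 0.26 (SE 0.0871, limma adjusted p = 0.504). Feature 4411 gave 0.22 (limma adjusted p = 0.473) and feature 4202 gave 0.08.

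The replicate numbers paired the high-fat arrays within each strain. Arrays of one number deviated from their group means together, with r of at least 0.208 in all 24 pairs. Between strains on high-fat diet the numbers did not pair (lowest r -0.118), though the block joins a number over both strains. With the number as a block, limma called 11 members higher late and 0 lower, against 0.878% of all features higher and 0.293% lower. These were features 5708, 4411, 2787, 21273, 8902, 14997, 795, 19099, 8716, 10845 and 6713, with differences from 0.77 down to 0.10. Their adjusted p-values under the block lay between 0.00212 and 0.0376. Without the block, all but feature 5708 had an adjusted p of 0.329 or more. Within strains the block called features 5708, 795 and 6713 in C57 (0.297% of all features called higher) and feature 21273 in C3H (0.179%). A term for each series of one strain, diet and number called 5 of the 11 as a random block and all 11 as a fixed term. The shares of all features in those settings are given at the end.

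Those 11 calls were sensitive to array spread. After scaling the arrays to one spread, with the block, limma called 2 of the 11, features 5708 and 21273, against 0.236% of all features called higher. All 11 kept a positive difference there, with a median of 0.101 against 0.136 before. With quantile normalization and the block it called feature 5708 higher and feature 16198 lower, against 0.217% and 0.151% of all features. Without C57 high-fat replicate 3 at week 40, the high-fat array with the lowest members' median, the block called 25 members, against 2.02% of all features called higher. Leaving out any other high-fat array gave 9 to 16 members, against 0.406% to 1.67% of all features. From numbers 1 and 2 alone limma called 15 members higher, against 0.571%.

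Features 14997 and 21273 are 2 of the 11, with late minus early differences of 0.14 and 0.18. Feature 14997 in C57 read 0.09, -0.08 and -0.10 at high-fat week 4 and 0.25, 0.25 and 0.22 at week 40, and in C3H 0.08, 0.03 and -0.32 against 0.16, 0.14 and 0.14. The week 40 arrays lay above all week 4 arrays in both strains. Its week 40 minus week 4 difference was 0.24, with a limma adjusted p of 0.0917 without the block and 0.00389 with it. Feature 21273 in C3H read 0.05, 0.08 and -0.23 at week 4 and 0.37, 0.32 and 0.22 at week 40, without overlap. In C57 it read 0.16, 0.10 and 0.07 against 0.19, 0.49 and -0.07, where replicate 3 was the lowest of the 6.

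With the block, 14 members were called higher and 0 lower at week 40 against week 4, beside 0.992% of all features called higher. Feature 5708 had the largest difference among them, then features 20060 at 0.39, 4411 at 0.30 and 2787 at 0.29. Within strains the block called 7 members at week 40 in C57, against 1.26% of all features, and 3 in C3H, features 5708, 20060 and 21273, against 0.482%. Feature 5708 in C3H, which had missed the threshold, then had a limma adjusted p of 0.0265. In all, 65 members were higher at week 40 than at week 4, against 50.1% of all features, and the median difference was 0.047 against 0.0001. Whether the change over time differed between strains was tested for the chow and the late minus early high-fat difference. Limma called 0 members for either, and 0 of all features (0%). An unadjusted p under 0.05 was found in 0 members for chow, against 0.595% of all features, and in 2 for high-fat diet, against 4.38%. With the replicate block limma also called 0 members for either.

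**Figure D4:**
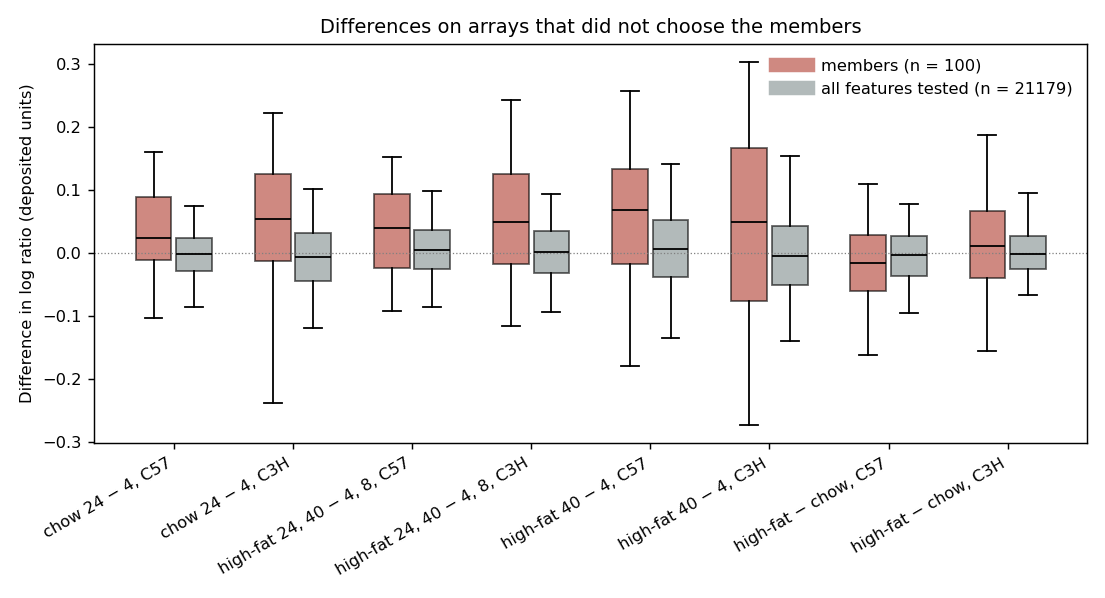
Boxes give the quartiles and whiskers the 5th to 95th percentile of the difference in log ratio, in deposited units, for the 100 members and for all 21179 features, in 4 contrasts for each strain. The members' medians lie at 0.025 to 0.069 in the time contrasts on chow and high-fat diet, and at -0.016 in C57 and 0.011 in C3H for diet, with wider boxes than all features throughout.

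Members differed in whether they repeated the rise. Averaged over strains, 59 were higher both at chow week 24 against 4 and late against early on high-fat diet, against 23.3% of all features. Both changes were positive in each strain separately in 35 members, against 7.72%. Both were negative in each strain in 6 members, features 13483, 17028, 13856, 16932, 18111 and 13074, against 7.21%. Feature 13483, at rank 6 by score, was among them. Its C57 chow arrays ran from -1.12 to -0.09 between weeks 4 and 24, and its within-group SD of 0.42 was the highest of any member.

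Feature 10055 read differently on the diets in C3H. On C3H chow it read 1.03, 0.89 and 0.88 at week 4 and 0.60, 0.65 and 0.63 at week 24, where all week 24 arrays lay below week 4. On C3H high-fat diet it read 0.27, 0.42 and 0.58 at week 8 and 1.16, 1.09 and 0.62 at week 24, where all week 24 arrays lay above week 8. At high-fat week 4 it read 0.94, 0.46 and 0.38, which overlapped week 24. Its late minus early high-fat difference in C3H was 0.39 (SE 0.101, limma adjusted p = 0.248).

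Some traits of the members are given over all arrays, so the arrays of the choice enter them. Their mean ratio over the 54 arrays had a median of 0.11, against 0.0012 for all features, and 64 were positive against 50.5%. They lay far from the embryo reference in either direction, with a median absolute mean of 0.337 against 0.0842. They were also noisier: the SD within groups had a median of 0.167 against 0.0880, and 94 of 100 lay above the median feature. The part of this spread in the choice of members was not tested.

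As deposited, the high-fat difference varied with the level of the ratio. Among the 38 members with a mean ratio above 0.3 (4.68% of all features lie there), 36 were higher late, with a median of 0.097. All features of that level were higher late in 79.1%, with a median of 0.038. Among the 47 members between -0.3 and 0.3 it was 33, with a median of 0.035, beside 52.4% and a median of 0.0018 for all features there. Among the 15 members below -0.3, 5 were higher late, with a median of -0.042. All features of that level were higher late in 30.8%, which is near the members' share, with a median of -0.024. After scaling the arrays to one spread this order was gone. The upper class then had 23 of 38 members higher with a median of 0.011, the middle class 32 of 47 with 0.022, and the lower class turned to 10 of 15 with 0.0093. The chow difference between weeks 4 and 24 varied with level too. From the upper to the lower class, 32 of 38, 31 of 47 and 7 of 15 members were higher at week 24. Their medians were 0.072, 0.026 and -0.0069. The shares of all features were 58.4%, 47.9% and 17.7%. After scaling, 28, 30 and 8 of these members were higher at week 24. Shares of all features by level are not given for the scaled arrays. The array SD had a median of 0.258 on the early and 0.270 on the late high-fat arrays, and its part in the result was not tested.

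A set of members moved together from array to array. Over the 54 arrays, r between pairs of members had a median of 0.236, from -0.684 to 0.998, and 30 of 4950 pairs lay above 0.9. Pairs above 0.9 joined 13 members into 1 set: features 795, 6713, 7587, 7810, 8716, 9195, 10470, 10845, 10998, 14089, 16025, 19099 and 20179. Features 795 and 8716 correlated at 0.998 and had nearly one mean ratio, 0.56 and 0.55. The points share arrays and the choice, so no test is attached.

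Feature 795 is 1 member of the set, and not every other member followed it. On C57 high-fat diet it read 0.56, 0.53 and 0.26 at week 4 and 0.85, 0.73 and 0.46 at week 40, and on C3H high-fat diet 0.74, 0.73 and 0.40 against 0.97, 1.0 and 0.46. In both strains the number 3 array was the lowest at each week, and week 40 exceeded week 4 within every number. By contrast, in C57 number 3 feature 20179 fell from 0.97 to 0.37 and feature 10998 from 0.74 to 0.005. The C57 week 40 minus week 4 differences of these 2 features were -0.024 and -0.13. All 13 members of the set were higher late on high-fat diet, with a median of 0.10, against 52.1% of all features. At chow week 24, 10 were higher, against 46.2%. All but features 10845 and 14089 had a mean ratio above 0.3. Of all features at that level, 79.1% were higher late on high-fat diet and 58.4% at chow week 24. The 13 members are not independent of each other, and 5 of the 11 members called under the block are among them.

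Diet was compared at weeks 4, 8 and 24, where no array had been used in the choice. On high-fat diet 50 of 100 members were higher, against 49.0% of all features, and their median difference was 0.0015. Averaged over strains, limma called 0 members, where it called 11 features higher (0.0519%) and 21 lower (0.0992%). An unadjusted limma p under 0.05 was found in 7 members, against 8.77% of all features. By strain, the median was -0.016 in C57 with 43 higher and 0.011 in C3H with 54 higher, against 47.3% and 48.1% of all features. In C3H alone 0 members were called, beside 0.156% of all features higher and 0.0425% lower, and 11 members had an unadjusted p under 0.05, against 7.78% of all features.

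Within strains, feature 5037 was the only member called, in C57. There it read 0.12, 0.07 and 0.06 on chow and 0.42, 0.31 and 0.27 on high-fat diet at week 4, 0.30, 0.16 and 0.22 against 0.40, 0.42 and 0.45 at week 8, and 0.20, 0.05 and 0.03 against 0.44, 0.66 and 0.40 at week 24. Every high-fat array lay above every chow array of its week. In C3H it read 0.17, 0.27 and 0.05 against 0.01, -0.04 and -0.05 at week 8, and 0.39, 0.29 and 0.37 against 0.17, 0.05 and 0.09 at week 24. There every high-fat array lay below every chow array, while at week 4 the groups overlapped.

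The high-fat minus chow difference of feature 5037 was 0.28 in C57 (SE 0.0385, limma adjusted p = 5.52e-05), beside 0.0283% of all features called higher. In C3H the difference was -0.16 (SE 0.0385, limma adjusted p = 0.0799). The strain difference of the diet difference was 0.44 (SE 0.0544, limma adjusted p = 1.46e-05), where 0.0142% of all features were called in that direction. Both calls passed in 66 of 67 other settings. The exception for both was each series of one strain, diet and number as a random block, with a limma adjusted p of 0.117 for the C57 difference and 0.0800 for the strain difference of it. At week 0, before the diet, the feature lay at -0.15, -0.17 and -0.17 in C57 and at 0.19, 0.10 and 0.03 in C3H.

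Strain was compared within each diet. On chow at weeks 4, 8 and 24, limma called 7 members, 3 higher in C57 (2.22% of all features) and 4 lower (1.41%). Features 21600, 2607 and 9836 were higher in C57 by 0.31, 0.24 and 0.20. Features 5712, 1105, 19843 and 8106 were lower in C57, with differences of -0.49, -0.34, -0.26 and -0.16. Their limma adjusted p-values ran from 1.78e-06 to 0.0317. Feature 8106 had the least stable call, which passed in 49 of 67 other settings. It was lost after scaling, where the difference was -0.090, after quantile normalization, and without any 1 of 11 of the 18 chow arrays compared. From numbers 1 and 2 alone it was lost as well. Without the 5 arrays of small spread, features 8106, 9836 and 19843 all lost their calls. Those of the 5 that enter this contrast are all C57. Feature 9836 lost its call after scaling and without any 1 of 4 arrays (C57 replicate 2 and C3H replicate 3 at week 8, and C3H replicate 3 at weeks 4 and 24), and feature 21600 without C3H replicate 3 at week 8. The number pairs these arrays too (r at least 0.163), and with it as a block limma called 17 members, 7 higher (4.54%) and 10 lower (3.94%). With each series as a random block it called 2, features 5712 and 2607, against 1.04% of all features.

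Feature 5712 was the clearest of them. On chow at weeks 4, 8 and 24 its 9 C57 arrays ran from -0.33 to -0.01 with a median of -0.19, and its 9 C3H arrays from 0.15 to 0.45 with a median of 0.32. The strains did not overlap. On high-fat diet the 12 C57 arrays ran from -0.34 to -0.06 and the 12 C3H arrays from -0.12 to 0.61, where 1 C3H array, replicate 1 at week 8, lay among the C57 arrays. The high-fat difference was -0.56 (SE 0.0577, limma adjusted p = 1.88e-09).

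Without overlap on chow were also feature 9836, which ran from -0.29 to -0.14 in C57 and from -0.54 to -0.32 in C3H, and feature 1105, which ran from -0.09 to 0.14 in C57 and from 0.18 to 0.56 in C3H. So 1 member lay wholly higher in C57 on chow, against 0.661% of all features, and 2 lay wholly lower, against 0.373%. On high-fat diet 0 members did so, against 0.647% and 0.279% of all features.

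On high-fat diet limma called 19 members for strain, 8 higher in C57 (4.72% of all features) and 11 lower (6.31%). Features 22199, 5037, 21600 and 3510 were the highest in C57, by 0.51, 0.23, 0.22 and 0.18. The order of the strains was reversed for feature 5037 at week 40, with a mean of 0.16 in C57 and 0.28 in C3H. Features 5712, 51, 12389 and 10055 were the lowest, at -0.56, -0.35, -0.33 and -0.29. They were not alike in every number. Feature 22199 differed by 0.70, -0.21 and 1.05 in numbers 1 to 3, feature 51 by 0.03, -0.51 and -0.58, and feature 12389 by 0.07, -0.31 and -0.75. From numbers 1 and 2 alone they differed by 0.25, -0.24 and -0.12, and none of the 3 passed. The call of feature 12389 was lost without any 1 of 11 of the 24 high-fat arrays, and that of feature 21600 without any 1 of 10. Features 7734 and 3404, at -0.16 and -0.27, had the least stable calls and passed in 33 of 67 other settings each. With each series as a random block 2 members were called, against 1.81%.

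Calls for strain on chow and on high-fat diet, which come from separate arrays, shared 6 members, features 1105, 2607, 5712, 8106, 9836 and 21600, all with the same sign. They are 85.7% of the 7 chow calls and 31.6% of the 19 high-fat calls. Among all features the shared calls were 79.8% and 26.2%. Of the 19 high-fat calls, 15 (78.9%) had the same sign on chow, against 90.2% of the high-fat calls among all features. Feature 51 did not: on chow its C57 arrays ran from -0.87 to -0.06 and its C3H arrays from -0.99 to -0.18, which overlapped, and on high-fat diet C57 had a median of -0.68 and C3H of -0.26.

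**Figure D5:**
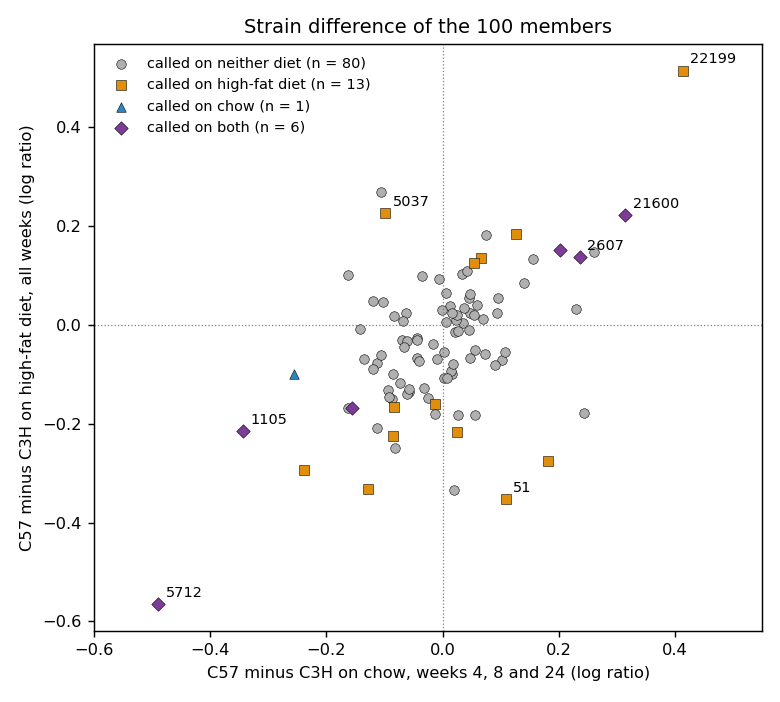
Each point is 1 of the 100 members, with the C57 minus C3H difference in log ratio on chow at weeks 4, 8 and 24 across and on high-fat diet up, both in deposited units. Feature 5712 lies at -0.49 and -0.56, features 22199 and 21600 lie high on both axes, and feature 5037 lies at -0.10 and 0.23.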

How the data were processed

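The deposited table of log10 ratios (likely base) for 54 arrays was used as the authors made it. No label or header states the dyes, scanner, background correction or normalization. Titles give week 8 where the source field lists week 10, and titles were followed. The 7895 exact zeros were treated as not measured, arrays were centred on their median over the 20694 features that all arrays measured, and features with at least 2 values in each of 18 groups were kept. A limma (3.58.1, R 4.3.3) fit of 18 group means to all arrays gave two-sided moderated tests of each contrast, adjusted over the 21179 features by Benjamini-Hochberg. An adjusted p under 0.05 counts as called. Of the members, 93 were measured on all arrays and 7 lacked up to 9 values. The fit uses the measured arrays only.

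The members and lists were chosen with earlier results of these data known. Named are the 10 highest scores, ranks 96 to 100 and the next 5, and called members with the largest differences, up to 4 in each direction, or 2 per strain. Others were named after their values were seen. Alternatives were no centring, quantile normalization, scaling to one spread, zeros kept, complete features, plain spread estimates, only the arrays compared, replicate number or series as a block, numbers 1 and 2 alone, and each array left out. Counts of settings passed include left-out arrays that do not enter the contrast. The numbers pair the arrays where every same-number pair of deviations had r over 0.1. They did so for the time contrasts outside the choice, where all pairs are within a strain, and for strain on chow. They did not for diet (lowest r -0.236), strain on high-fat diet (-0.118) or C57 chow week 40 against week 0 (-0.128). The fit was first tested on simulated data. Ratios do not show signal over background, and precision is limited by the number of arrays.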

Additional observations from a re-analysis of the deposited data

Results flagged for a closer look

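Feature 5037 stood out because its diet difference at weeks 4, 8 and 24 was not the same in the strains. The difference was 0.28 in C57 and -0.16 in C3H, and limma's test of the difference between them gave 0.44 (SE 0.0544, adjusted p = 1.46e-05). On high-fat diet the 9 C57 arrays of these weeks ran from 0.27 to 0.66 with a median of 0.42, and the 9 C3H arrays from -0.05 to 0.19 with a median of 0.09. On chow the strains overlapped, at 0.03 to 0.30 in C57 and 0.05 to 0.39 in C3H. Week 40 is outside this comparison. On high-fat diet the mean there was 0.16 in C57 and 0.28 in C3H, so C57 was no longer the higher strain. The feature ranks 37 among the 100 members. Whether a batch of one strain and diet takes part in it was not tested apart from the random block for series, with which it did not pass. Without single arrays it lay between 0.41 and 0.46 and passed each time.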

How the results depend on the processing

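Shares in brackets are of all features called in the same setting, in the same direction or directions. For high-fat weeks 24 and 40 against 4 and 8, limma called 1 member. The replicate block is given above because the numbers pair these arrays within a strain. It called 11 higher (0.878%), series as a random block 7 (0.798%), a fixed term for each series 13 (0.982%) and numbers 1 and 2 alone 15 (0.571%). In either direction quantile normalization called 2 (0.132%), and with the replicate block scaling called 2 (0.321%) and quantile normalization 2 (0.368%). Leaving out single arrays gave 1 to 2, with 2 only without C57 high-fat replicate 3 at week 40, and 9 to 25 with the replicate block. The members' median difference stayed positive, at 0.028 to 0.056 without single arrays and 0.014 to 0.054 otherwise.

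For diet, where limma called 0, quantile normalization gave 2 (0.321%), scaling 1 (0.179%), the replicate block 5 (3.81%), numbers 1 and 2 alone 3 (1.41%), scaling with the block 3 (2.80%) and quantile normalization with the block 6 (3.24%). Single arrays left out gave 0 to 1, with 1 without C3H high-fat replicate 2 at week 24. For strain on chow, 7 became 17 with the replicate block (8.48%), 17 with scaling and the block (9.49%), 14 with quantile normalization and the block (9.32%), and 2 with series as a random block (1.04%), and 5 to 8 without single arrays. For strain on high-fat diet, 19 became 40 with the block (25.7%), 33 with scaling and the block (21.6%), 40 with quantile normalization and the block (23.7%), 2 with series as a random block (1.81%), and 14 to 21 without single arrays. The diet and high-fat strain arrays are not paired by number, so their block counts are given here only. The causes were not tested.

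Chow week 24 against week 4 gave 0 members in every setting, with a median difference of 0.023 to 0.069 without single arrays and 0.027 to 0.067 otherwise. The list itself changed: 63 members returned when the score was the mean of the strains' differences, and 59 from numbers 1 and 2 alone. Feature 5708 kept its late high-fat difference at 0.67 to 0.87 in 92 settings. From week 4 to 40 it passed in 91 of 92 averaged over strains and in 63 of 68 in C57, with numbers 1 and 2 alone (1.01) among the exceptions. The fixed series term, the block with scaling or quantile normalization or single arrays left out, and the fit without 5 arrays of small spread were chosen after seeing the data. No member's difference that was called without the block turned its sign in these settings.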
